A study of Mus musculus with 10 samples.

Results

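The immunoglobulin genes are the heavy chain locus (Igh, chromosome 12) and the kappa (Igk, chromosome 6) and lambda (Igl, chromosome 16) light chain loci of the mouse. They were taken from the gene table by name, as heavy chain V segments and constant genes, kappa V segments and Igkc, and lambda V segments and constant genes. The names matched 231 rows. The match Ighmbp2, which encodes a helicase and no immunoglobulin, was set aside, and this left 230 members of 31285 genes. They were 108 Ighv segments, 8 heavy chain constant genes, 105 Igkv segments, Igkc, 3 Iglv segments, 4 Iglc genes and 1 D segment, Ighd4-1.

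Inguinal white adipose tissue, the subcutaneous fat pad of the groin, was sequenced from Ad-GHRKO mice and Flox mice. Per the series, Ad-GHRKO mice lack the growth hormone receptor gene Ghr in adipose tissue, and the sample labels give its genotype as GHR Knockdown. Flox is the comparison genotype, all animals were 20 months old and had free access to chow, and each genotype had 5 libraries. The labels do not name the promoter that drives the deletion, the strain or the sex, nor whether every sample is a different animal. The p-values therefore cover sample-to-sample spread, which may be technical.

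An antibody is built from paired heavy and light chains. Each B cell joins 1 V segment to short D and J pieces at the heavy locus and 1 V segment to a J piece at a light locus, and its progeny carry the same pair. The constant gene sets the class: Ighm gives IgM, Ighd IgD, the Ighg genes IgG, Ighe IgE and Igha IgA. Plasma cells, the antibody-secreting progeny of B cells, hold far more immunoglobulin mRNA per cell than resting B cells. In fat, B cells and plasma cells lie among the stromal cells, and the inguinal pad also contains a lymph node.

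The V segments that led most libraries were Ighv11-2 and Igkv14-126. In mouse B-1a cells this heavy and kappa pair is known as a recurrent combination that binds phosphatidylcholine. Their germline V exons are shown because the segment results turn on them. The sequences are those of GENCODE M21 on GRCm38, the last 300 bases of Ighv11-2 (chr12:114048241-114048540, minus strand) and the V exon of Igkv14-126 (chr6:67896345-67896642, plus strand). Capitals mark the codon of the cysteine after which the joined region begins.
Ighv11-2: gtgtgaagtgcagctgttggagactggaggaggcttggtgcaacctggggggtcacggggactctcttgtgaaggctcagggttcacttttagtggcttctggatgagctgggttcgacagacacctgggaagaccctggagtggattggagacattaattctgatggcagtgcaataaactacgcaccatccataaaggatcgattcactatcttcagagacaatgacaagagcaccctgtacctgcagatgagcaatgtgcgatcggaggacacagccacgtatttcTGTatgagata
Igkv14-126: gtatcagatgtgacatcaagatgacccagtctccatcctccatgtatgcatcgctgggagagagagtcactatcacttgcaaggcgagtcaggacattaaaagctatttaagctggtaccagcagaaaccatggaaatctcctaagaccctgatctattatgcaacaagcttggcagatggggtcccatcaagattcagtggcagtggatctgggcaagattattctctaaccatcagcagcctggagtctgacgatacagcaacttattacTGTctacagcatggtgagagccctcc

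The segments end close to that codon, where the junction with D or J is made, and the bases around it differ between segments. Germline stretches around the codon, again in capitals, are given for 6 other segments that ranked first or second at their locus in at least 1 library. The heavy stretches run to the end of the segment and the kappa stretches stop short of it: 3 heavy segments on chromosome 12, minus strand (Ighv1-55 at chr12:115208095-115208115, Ighv1-84 at chr12:115980702-115980722, Ighv1-53 at chr12:115158403-115158423), and 3 kappa segments on chromosome 6, minus strand (Igkv12-89 at chr6:68834854-68834883, Igkv6-15 at chr6:70406477-70406506, Igkv4-55 at chr6:69607285-69607314).
Ighv1-55: gcggtctattacTGTgcaaga
Ighv1-84: gcggtctatttcTGTgcaaga
Ighv1-53: gcggtctattatTGTgcaaga
Igkv12-89: gcaacgtattacTGTcaaaatgtgttaagt
Igkv6-15: gcagagtatttcTGTcagcaatataacagc
Igkv4-55: gccacttattacTGCcagcagtggagtagt

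Values are FPKM, fragments per kilobase of exon scaled to the depth of the library, as the authors deposited them. Every member value came out as a whole number of reads once length and library scale were removed, and the libraries held 14.6 to 19.3 M reads (M, mega). Ghr, the deleted gene, averaged 16.6 ± 2.71 FPKM in Ad-GHRKO libraries and 93.5 ± 21.9 FPKM in Flox libraries (SD, n = 5 each), a log2 difference of -2.41 (limma, adjusted p = 6.54e-05). Ad-GHRKO 1, Flox 3 and Flox 5 were rich in skeletal muscle transcripts, with 65326, 24415 and 37831 FPKM summed over 18 muscle genes. The sum was 31.6 to 986 FPKM in the other 7 libraries. Ad-GHRKO 5 had the 986 FPKM, with Ad-GHRKO 2 next at 105 FPKM, so it carried some muscle transcripts too. Values with the 3 muscle-rich libraries left out are given where they bear on a result.

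The immunoglobulin genes as a whole did not separate the genotypes. Their summed level was 2841, 996, 4867, 1103 and 3689 FPKM in Ad-GHRKO libraries 1 to 5, and 1776, 5216, 2065, 2529.6 and 1083 FPKM in Flox libraries 1 to 5. The highest and the lowest Ad-GHRKO libraries lay 4.89-fold apart and the highest and the lowest Flox libraries 4.82-fold apart, so each genotype held both immunoglobulin-rich and immunoglobulin-poor fat and the groups overlapped over nearly their whole range. The mean was 2699 ± 1669 FPKM in Ad-GHRKO and 2534 ± 1589 FPKM in Flox libraries (SD, n = 5 each), a ratio of 1.07. Immunoglobulin reads made up 0.0863% to 0.357% of reads in Ad-GHRKO libraries and 0.136% to 0.423% in Flox libraries. In whole tissue, fewer cells of a type and less RNA per cell cannot be told apart.

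Single members were tested with limma on log2(FPKM + 1), and p-values were adjusted by the Benjamini-Hochberg method over the 12785 genes that reached 1 FPKM in 5 or more libraries. Of the 230 members, 70 met that limit and 160 did not. At an adjusted p of 0.05, 1 of the 70 was called, Igkv10-94, which is 1.43% of them, where 2.19% of all tested genes were called in either direction. An unadjusted p under 0.05 was reached by 4 of the 70 members (5.71%), against 16.4% of all tested genes. The groups overlapped in every one of the 70 members, while in 4.97% of all tested genes all libraries of one genotype lay above all of the other. The median log2 difference over these 70 was 0.45 with 50 above 0 and 20 below, beside a median of 0.04 over all tested genes. Members share the same libraries and are not independent, so the count of signs was not tested as a genotype effect. The median was 0.66 over 20 Ighv, 0.41 over 38 Igkv and 0.68 over 3 Iglv segments. It was 0.08 over 5 heavy constant genes and 0.01 over 3 Iglc genes, and Igkc had -0.05. The median standard error of a member's log2 difference was 0.75, against 0.18 for all tested genes.

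Igkv10-94, a kappa V segment at chr6:68704508-68704978 on the minus strand, was called higher in Ad-GHRKO fat. It met the limit for testing through its Ad-GHRKO libraries, since Flox 4 was the only Flox library above 1 FPKM. The call is therefore not independent of the filter. It had 4.09, 9.16, 17.6, 3.89 and 8.08 FPKM in Ad-GHRKO libraries 1 to 5, and 0.908, 0, 0.309, 5.33 and 0.454 FPKM in Flox libraries 1 to 5. The 0 in Flox 2 allows up to 0.484 FPKM, the level of 3 reads. All Ad-GHRKO libraries lay above 4 of the 5 Flox libraries, and Flox 4 lay within the Ad-GHRKO range. The log2 difference was 2.17 with a standard error of 0.50 (limma, adjusted p = 0.0493). The call was lost with a pseudocount of 0.1 and when any 1 of 8 of the 10 libraries was left out, with adjusted p-values of 0.01 to 0.159 over all alternatives tried. Over stretches of 100 bases, 12.9% of its transcript is shared letter for letter with another V segment, and it is 97.1% identical to Igkv10-95, so reads could be assigned to either. Igkv10-95 had 57 reads in Ad-GHRKO 1, 14 in Flox 4 and at most 1 elsewhere.

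IgM dominated the heavy chain classes in every library. Ighm, the mu constant gene, had 687, 281, 915, 295 and 907 FPKM in Ad-GHRKO libraries 1 to 5, and 363, 1265, 449, 735 and 678 FPKM in Flox libraries 1 to 5. The highest value was a Flox library and the lowest an Ad-GHRKO library, and the groups overlapped. The log2 difference was -0.22 with a standard error of 0.44 and a 95% interval of -1.18 to 0.73 (limma, adjusted p = 0.852). Ighm took 91.7% to 98.4% of the summed heavy constant FPKM in Ad-GHRKO libraries and 89.9% to 99.3% in Flox libraries.

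Ighd, the delta gene that mature naive B cells express together with Ighm, was low. It had 0.345, 1.34, 2.34, 3.3 and 1.22 FPKM in Ad-GHRKO libraries 1 to 5, and 6.47, 1.68, 2.09, 2.71 and 1.11 FPKM in Flox libraries 1 to 5 (log2 difference -0.45, SE 0.36; limma, adjusted p = 0.598). Flox 1 was highest and Ad-GHRKO 1 lowest. The ratio of Ighm to Ighd therefore spanned 89.2 to 1990.2 in Ad-GHRKO libraries and 56.0 to 753 in Flox libraries.

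The IgG genes together made up 1.11% to 6.01% of heavy constant FPKM in Ad-GHRKO libraries and 0.45% to 7.95% in Flox libraries. Ighg2c had 8.32, 2.99, 33.6, 8.3 and 3.35 FPKM in Ad-GHRKO libraries 1 to 5, and 1.14, 1.44, 16.2, 14.7 and 15.8 FPKM in Flox libraries 1 to 5 (log2 difference 0.23, SE 0.76; limma, adjusted p = 0.921). Ighg2b had 15.8, 1.93, 6.21, 10 and 2.32 FPKM in Ad-GHRKO libraries 1 to 5, and 1.44, 2.8, 19.4, 2.34 and 3.69 FPKM in Flox libraries 1 to 5 (log2 difference 0.43, SE 0.61; limma, adjusted p = 0.787). The subclass that led changed from library to library. Ighg2b exceeded Ighg2c in Ad-GHRKO 1, Ad-GHRKO 4, Flox 1, Flox 2 and Flox 3, and Ighg2c led in the other 5.

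Ighg3 and Ighg1 were lower and did not meet the limit for testing. Ighg3 had 0.332 to 2.81 FPKM in Ad-GHRKO libraries and 0.1 to 1.62 FPKM in Flox libraries. Ighg1, the class that dominates many T cell-dependent responses, had 0 to 1.72 FPKM in Ad-GHRKO libraries and 0 to 2.42 FPKM in Flox libraries, with the highest value in Flox 3. Ighe was close to absent, with 11 reads over all 10 libraries and 5 of them in Ad-GHRKO 4.

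Igha, the class secreted at mucosal surfaces, stood out in 1 library of each genotype. It had 3.87, 4.12, 32.8, 3.83 and 3.64 FPKM in Ad-GHRKO libraries 1 to 5, and 7.35, 0.903, 8.53, 25.3 and 2.62 FPKM in Flox libraries 1 to 5. Ad-GHRKO 3 and Flox 4 were high, and the other 4 Ad-GHRKO libraries lay within a narrow band. The log2 difference was 0.08 with a standard error of 0.72 (limma, adjusted p = 0.973).

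Light chains were mostly kappa. Igkc had 698, 249, 1422, 331 and 1144 FPKM in Ad-GHRKO libraries 1 to 5, and 725, 2139, 642, 633 and 178 FPKM in Flox libraries 1 to 5. The highest and the lowest library were both Flox. The log2 difference was -0.05 with a standard error of 0.64 and a 95% interval of -1.47 to 1.36 (limma, adjusted p = 0.98). It was -0.72 when the 3 muscle-rich libraries were left out. The long noncoding gene Gm30211 is annotated over Igkc on the same strand, and its values stayed below 1 FPKM.

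Lambda light chains were rare except in Ad-GHRKO 1. The lambda genes held 24.4% of light constant FPKM in Ad-GHRKO 1, 0.276% to 1.83% in the other Ad-GHRKO libraries and 0.583% to 5.01% in Flox libraries. Iglc1 had 215, 0.574, 15.3, 3.54 and 10.1 FPKM in Ad-GHRKO libraries 1 to 5, and 6.25, 6.66, 3.19, 24.3 and 4.51 FPKM in Flox libraries 1 to 5 (log2 difference 0.62, SE 1.07; limma, adjusted p = 0.827, and -0.41 without Ad-GHRKO 1). Its upstream V segment Iglv1 had 250.4 FPKM in the same library, 2.13 to 34.8 FPKM in the other Ad-GHRKO libraries and 2.42 to 47.4 FPKM in Flox libraries. Both genes were thus high together in Ad-GHRKO 1, one of the muscle-rich libraries.

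Iglc2, Iglc3, Iglv2 and Iglv3 were lower and none was called. Iglc2 had 0 to 9.87 FPKM in Ad-GHRKO and 1.75 to 5.13 FPKM in Flox libraries (log2 difference 0.01, SE 0.56; limma, adjusted p = 0.998), and Iglc3 had 0.115 to 3.75 FPKM in Ad-GHRKO and 0.581 to 2.48 FPKM in Flox libraries (log2 difference -0.35, SE 0.36; limma, adjusted p = 0.70). Iglv2 led the lambda V segments in Ad-GHRKO 4 and Ad-GHRKO 5, with 52.9% and 55.1% of Iglv FPKM, and Iglv1 led in the other 8 libraries. Iglv2 is 96.7% identical to Iglv1 over its transcript. Iglc4 had 1 read in all.

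**Figure D1:**
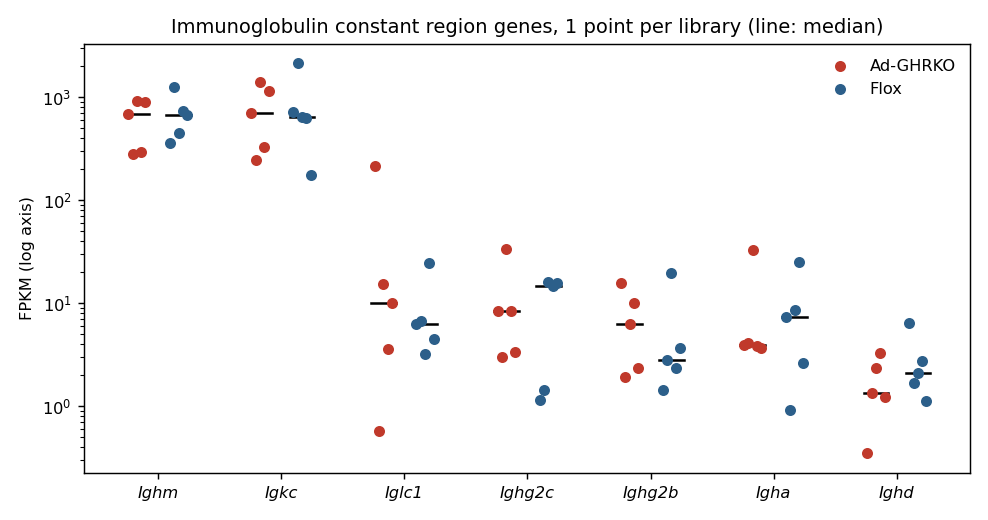
FPKM of 7 immunoglobulin constant genes on a log axis, 1 point for each library, Ad-GHRKO at left and Flox at right for each gene, with a line at the median. Ighm and Igkc lie between 178 and 2139 FPKM in both genotypes, the single high Iglc1 point of 215 FPKM is Ad-GHRKO 1, and the remaining points lie at or below 33.6 FPKM.

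Flox 5 differed from the other libraries in its balance of chains. Its Ighm level of 678 FPKM was within the range of the rest, but light constant FPKM over heavy constant FPKM was 0.267 there, against 0.854 to 1.46 in Ad-GHRKO libraries and 0.851 to 1.94 in the other Flox libraries. Summed Ighv FPKM over heavy constant FPKM was 0.0743 in Flox 5, against 0.432 to 0.719 in Ad-GHRKO and 0.258 to 0.601 in Flox 1 to 4. The plasma cell gene Jchain, over Ighm, was 0.00874 in Flox 5, against 0.0302 to 0.0638 in Ad-GHRKO and 0.036 to 0.0495 in Flox 1 to 4. Flox 5 was thus lowest in all 3 ratios, with an Ighm level that its light chains, V segments and Jchain did not match. It is 1 of the 3 muscle-rich libraries, and the part of muscle in these ratios was not tested. The muscle-rich Ad-GHRKO 1 and Flox 3 had light over heavy ratios of 1.29 and 1.3.

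A pair of V segments made up a large and very variable part of the repertoire. Ighv11-2 had 62.3, 99.6, 273, 16.5 and 164 FPKM in Ad-GHRKO libraries 1 to 5, and 64.7, 297, 44.3, 31.4 and 1.71 FPKM in Flox libraries 1 to 5. Igkv14-126 had 213, 242, 758, 43.9 and 578 FPKM in Ad-GHRKO libraries 1 to 5, and 328, 1373, 149, 129.9 and 6.6 FPKM in Flox libraries 1 to 5. For both segments the highest and the lowest library were Flox 2 and Flox 5, and the Ad-GHRKO libraries all lay between them. The log2 differences were 1.20 for Ighv11-2 (SE 1.09; limma, adjusted p = 0.647) and 0.79 for Igkv14-126 (SE 1.20; limma, adjusted p = 0.802). The value for Igkv14-126 turned to -0.28 without Flox 5 and to -0.57 without the 3 muscle-rich libraries.

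As a share of its locus, Ighv11-2 held 18.0%, 71.9%, 38.2%, 11.3% and 41.3% of Ighv FPKM in Ad-GHRKO libraries 1 to 5, and 44.3%, 90.5%, 14.8%, 9.98% and 3.28% in Flox libraries 1 to 5. Igkv14-126 held 36.1%, 77.1%, 46.0%, 15.2% and 49.1% of Igkv FPKM in Ad-GHRKO libraries 1 to 5, and 64.3%, 95%, 25%, 18.4% and 5.01% in Flox libraries 1 to 5. Ighv11-2 ranked first in 6 of 10 libraries and Igkv14-126 in 8 of 10. By reads, Ighv11-2 took 2444 of 2647 Ighv reads in Flox 2 (92.3%, exact 95% interval 91.3% to 93.3%) and 15 of 375 in Flox 5 (4.0%, exact 95% interval 2.26% to 6.51%). These intervals and the 3-read limits cover counting error only, since PCR copies are not independent molecules.

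The heavy and the kappa share moved together across libraries. Pearson's r between the Ighv11-2 share of Ighv and the Igkv14-126 share of Igkv was 0.979 over 10 libraries (permutation p = 2e-05, the smallest that 100000 resamples give here, adjusted p = 0.00012 over 6 relations), and Spearman's rho was 0.988 (permutation p = 2e-05). Without Flox 2 and Ad-GHRKO 2, the libraries farthest from the median, r was 0.96, and over the 7 libraries without muscle transcripts it was 0.982. The pair was taken up because its segments led their loci in these same libraries. The p-values and the adjustment over 6 relations do not cover that choice among all heavy and kappa segments. No correlation was computed within a genotype of 5 libraries. Both shares come from the same libraries, but their denominators are separate loci.

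Some of the reads of Ighv11-2 could belong to its neighbour in sequence. Its transcript is 98.9% identical to Ighv11-1 over the aligned length, and 17.4% of its stretches of 100 bases also occur in another V segment. Ighv11-1 had 3 reads over all libraries, against 8606 for Ighv11-2. Igkv14-126 shares none of its stretches with another segment, and its closest match, Igkv14-111, is 91.6% identical. Another pair known from phosphatidylcholine-binding B-1a cells, Ighv12-3 with Igkv4-91, was looked up after the leading pair was seen. Ighv12-3 had 0 to 6.19 FPKM in Ad-GHRKO and 0 to 0.635 FPKM in Flox libraries, and Igkv4-91 had 0 to 12.8 FPKM in Ad-GHRKO and 0 to 6.89 FPKM in Flox libraries.

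**Figure D2:**
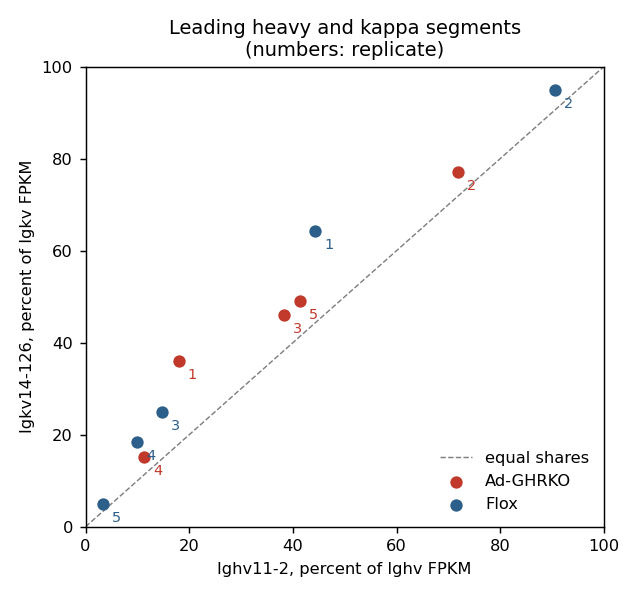
Share of Igkv14-126 in Igkv FPKM against share of Ighv11-2 in Ighv FPKM, in percent, 1 point per library with its replicate number, Ad-GHRKO and Flox in different colours and a dashed line of equal shares. The points rise together from Flox 5 (3.28% and 5.01%) to Flox 2 (90.5% and 95%), and both genotypes are spread along the line.

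Other segments were high in 1 or a few libraries each, again often as a heavy and a light segment together. The following pairs were chosen after their values were seen and are given without a test. Ighv1-55 and Igkv12-89 ranked first at their loci in Ad-GHRKO 4, with 22.3% of Ighv and 19.2% of Igkv FPKM, and in Flox 5, with 25.8% and 33.8%, and stayed at or below 5.24% and 3.5% in the other 8 libraries. Ighv1-84 and Igkv6-15 ranked second in Flox 1, with 41.6% and 23.2%, where Ighv1-84 was at most 2.68% elsewhere and Igkv6-15 at most 3.3%.

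Ighv1-53 and Igkv4-55 ranked second in Ad-GHRKO 5, with 23.9% and 13.6%, and also in Flox 3, with 9.22% and 7.44%. In Flox 5 Ighv1-53 held 11.8% of Ighv while Igkv4-55 held 0.737% of Igkv, so these segments were not always high together. Ighv7-1 and Igkv15-103 ranked second in Ad-GHRKO 3, with 13.7% and 11.9%, and held 3.14% and 3.73% in Flox 4. Those were also the libraries highest in Igha within their genotype. Ighv1-52 led the heavy segments of Ad-GHRKO 1 with 29.8%, in the library where Iglc1 and Iglv1 were high. Of stretches of 100 bases, 29.4% in Ighv1-52, 17.1% in Ighv1-84 and 16.1% in Igkv4-55 also occur in another V segment. Some of their reads could therefore belong elsewhere. Ighv7-1, Igkv15-103, Igkv6-15 and Igkv12-89 share no such stretch.

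The same segments in FPKM showed how far single libraries set a genotype's mean. Ighv1-53 averaged 21.5 ± 41.2 FPKM in Ad-GHRKO and 7.59 ± 11.5 FPKM in Flox libraries (SD, n = 5 each), with 95.1 FPKM in Ad-GHRKO 5 alone. Ighv1-52 averaged 22.5 ± 45.3 FPKM in Ad-GHRKO and 4.67 ± 9.28 FPKM in Flox libraries, with 103 FPKM in Ad-GHRKO 1 and 21.2 FPKM in Flox 3. Igkv15-103 averaged 44.2 ± 84.8 FPKM in Ad-GHRKO and 6.43 ± 11.2 FPKM in Flox libraries, with 196 FPKM in Ad-GHRKO 3. In each of these the SD exceeded the mean in both genotypes, and none was called (limma, adjusted p = 0.823 for Ighv1-53, 0.755 for Ighv1-52 and 0.603 for Igkv15-103).

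Ighv1-26 and Igkv1-117 were spread over more libraries. Ighv1-26 had 1.63 to 30.5 FPKM in Ad-GHRKO and 0 to 32.4 FPKM in Flox libraries and led the heavy segments of Flox 4 with 10.3% of Ighv. Igkv1-117 had 27.5, 26.2, 18.1, 4.11 and 34.7 FPKM in Ad-GHRKO libraries 1 to 5, and 0.468, 0.277, 29.2, 65.5 and 1.56 FPKM in Flox libraries 1 to 5. All 5 Ad-GHRKO libraries exceeded 3 of the Flox libraries, and Flox 4 was the highest of all (log2 difference 1.63, SE 1.08; limma, adjusted p = 0.508).

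**Figure D3:**
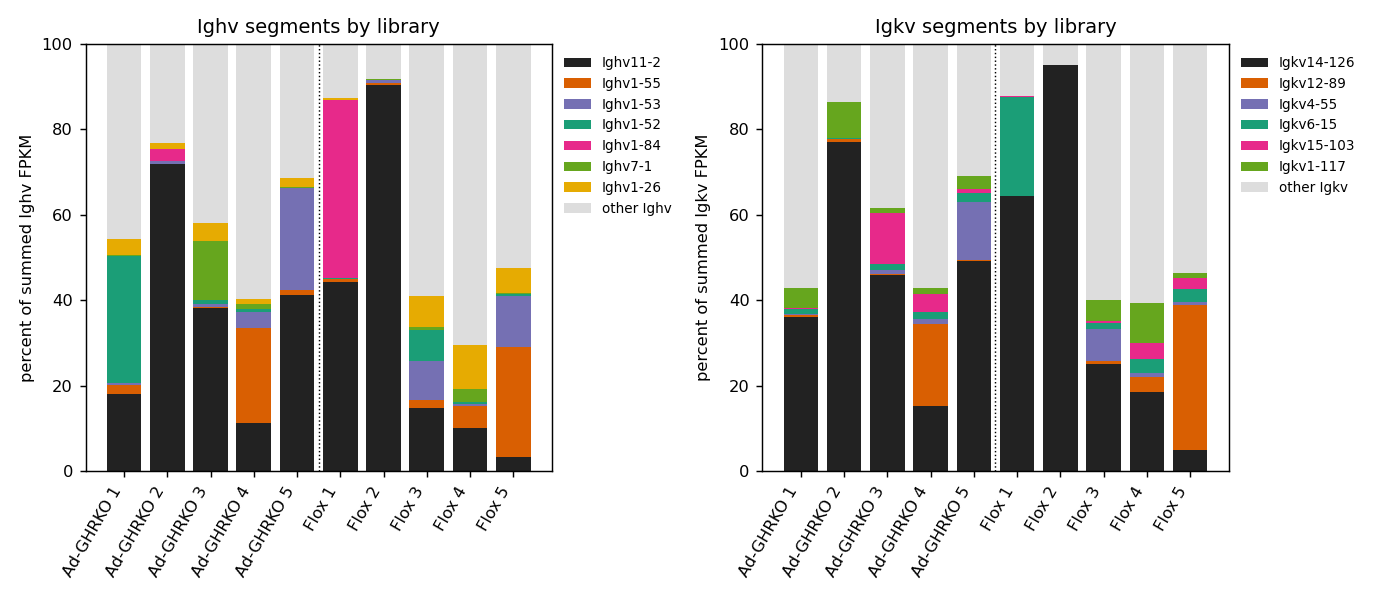
Percent of summed Ighv FPKM (left) and of summed Igkv FPKM (right) held by named segments in each library, Ad-GHRKO 1 to 5 and then Flox 1 to 5, with all other segments in grey. Ighv11-2 and Igkv14-126 (black) fill 90.5% and 95% of Flox 2, while other segments hold most of Flox 4 and Flox 5.

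By family, the 56 Ighv1 segments together held the largest share of Ighv FPKM in 7 libraries, and the Ighv11 family in Ad-GHRKO 2, Ad-GHRKO 3 and Flox 2. Ighv1 made up 56.2%, 16.2%, 18.5%, 53.8% and 44.3% of Ighv FPKM in Ad-GHRKO libraries 1 to 5, and 48.3%, 3.05%, 50.8%, 44.9% and 57.3% in Flox libraries 1 to 5. With Ighv11-2 taken out of the sum, Ighv1 held 30% to 86.8% of what remained. Among kappa families, Igkv14 led in 8 libraries, and Igkv12 led in Ad-GHRKO 4 and Flox 5 with 22.4% and 38.0%. The 28 Igkv4 segments, the largest kappa family among the members, held 4.1% to 18.0% in Ad-GHRKO and 0.441% to 19.7% in Flox libraries. The 20 V pseudogenes among the members had 61 reads in all.

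Segment diversity did not separate the genotypes. Reads were seen on 38 to 72 Ighv segments in Ad-GHRKO libraries and on 34 to 80 in Flox libraries, and on 35 to 77 Igkv segments in Ad-GHRKO and 45 to 79 in Flox libraries. The effective number of segments, the exponential of the Shannon entropy of their FPKM shares, counts how many equally used segments would give the same evenness. For Ighv it was 14.5, 4.3, 11.2, 22.4 and 9.78 in Ad-GHRKO libraries 1 to 5, and 4.4, 1.78, 30.1, 26.6 and 20.0 in Flox libraries 1 to 5. For Igkv it was 18.6, 3.0, 9.77, 22.2 and 8.4 in Ad-GHRKO libraries 1 to 5, and 3.67, 1.38, 24.8, 27.2 and 15.5 in Flox libraries 1 to 5.

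Flox held both the most even libraries, Flox 3 and Flox 4, and the least even, Flox 2, and the Ad-GHRKO libraries lay between. The means differed by -4.15 for Ighv (12.4 ± 6.66 in Ad-GHRKO and 16.6 ± 12.9 in Flox libraries; SD, n = 5 each) and by -2.12 for Igkv (12.4 ± 7.85 in Ad-GHRKO and 14.5 ± 11.8 in Flox libraries). Without the 3 muscle-rich libraries the differences turned to 0.99 for Ighv and 0.0856 for Igkv. Both differences were smaller than the spread within either genotype, and no test was made of these scores. Libraries with more reads can show more segments, so the number expected among 375 Ighv reads, the count of Flox 5, was also computed. It was 27.7 to 46.7 in Ad-GHRKO and 14.8 to 53.5 in Flox libraries. With Ighv11-2 left out of the shares, the effective number of Ighv segments was 14.6 to 22.3 in Ad-GHRKO and 4.16 to 33.3 in Flox libraries, and Flox 1, where Ighv1-84 was high, was then the least even.

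**Figure D4:**
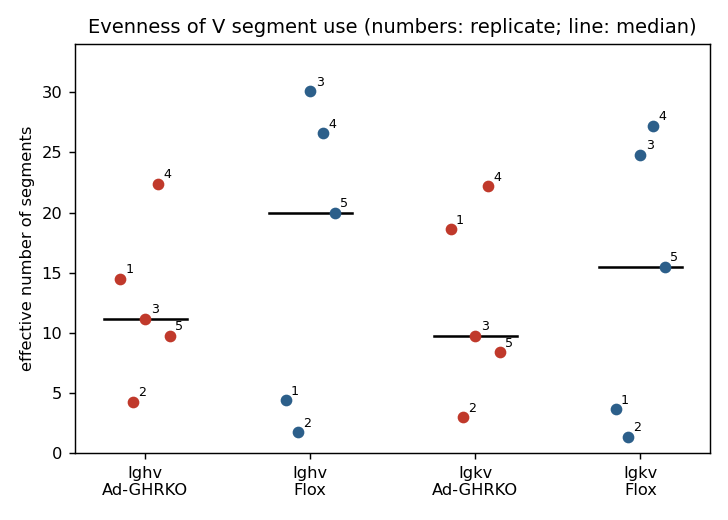
Effective number of Ighv and Igkv segments in each library, Ad-GHRKO left of Flox for each locus, with replicate numbers and a line at the median. Flox values run from 1.78 to 30.1 for Ighv and from 1.38 to 27.2 for Igkv, and the Ad-GHRKO values fall inside these ranges.

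Read counts of the members not named above differed widely. Igkv3-2 had 1218 reads over all libraries, and Igkv4-71 had 739, all of them in Ad-GHRKO 3, while many others had few. All 31285 deposited genes had a value above 0 in at least 1 library, so reads on each of the 230 members were given in advance. Of 346 V segments in GENCODE M21, 130 were not among the deposited genes. Reads were found on 31 members in all 10 libraries, and 30 members had reads in 1 library only. Ighd4-1, a D segment of 11 bases, had 2 reads, and its listed 4.88 and 5.1 FPKM in Flox 3 and Flox 4 stand for 1 read each.

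Genes of the cells that make immunoglobulin were read from lists of markers. Of all tested genes 2.19% were called, so a short list would often hold no call, here and for each list below. None of 10 tested B cell genes was called, of 25 listed, and their median log2 difference was -0.27. Cd79a, the signalling chain of the B cell receptor, had 3.26, 0.894, 3.78, 5.13 and 5.12 FPKM in Ad-GHRKO libraries 1 to 5, and 14.3, 6.35, 4.38, 1.77 and 2.67 FPKM in Flox libraries 1 to 5 (log2 difference -0.42, SE 0.45; limma, adjusted p = 0.711). Ms4a1, which encodes CD20, had at most 1.26 FPKM and was not tested. Cd37 and Cd83, the most abundant genes of the list, differed in the other direction from Cd79a. Their log2 differences were 0.27 for Cd37 (SE 0.38; limma, adjusted p = 0.78) and 0.83 for Cd83 (SE 0.54; limma, adjusted p = 0.497). Flox 1, the library highest in Cd79a, Ms4a1 and Ighd, had a lower summed immunoglobulin level than 6 of the other libraries.

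None of 14 tested plasma cell genes was called, of 19 listed, beside 2.19% of all tested genes. Jchain, which links IgM and IgA into polymers, had 43.8, 8.49, 53.3, 12.9 and 55.5 FPKM in Ad-GHRKO libraries 1 to 5, and 17.9, 58.2, 16.2, 30.2 and 5.92 FPKM in Flox libraries 1 to 5. The groups overlapped, with both the highest and the lowest library in Flox (log2 difference 0.43, SE 0.63; limma, adjusted p = 0.794). The difference turned to -0.37 without the 3 muscle-rich libraries and to -0.45 with array weights. Mzb1, a chaperone of IgM assembly, had at most 0.72 FPKM, and Prdm1, the regulator of plasma cell fate, at most 0.981 FPKM, so neither was tested. Xbp1, a regulator of secretory capacity that many other cells also express, had 46.5 to 101 FPKM in Ad-GHRKO and 63.7 to 88.8 FPKM in Flox libraries. Sdc1, which encodes CD138 and is not limited to plasma cells, had 4.92 to 17.8 FPKM in Ad-GHRKO and 2.9 to 5.44 FPKM in Flox libraries.

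Of the constant genes, Igkc and Ighm were set against Jchain across libraries. The log2 levels of Igkc and Jchain had a Pearson's r of 0.928 over 10 libraries (permutation p = 6e-05, adjusted p = 0.00018 over 6 relations) and a Spearman's rho of 0.927 (permutation p = 0.00036), and r was 0.889 without Flox 5 and Flox 2, the farthest from the median. For Ighm and Jchain r was 0.733 (permutation p = 0.0225, adjusted p = 0.045) and rho was 0.842. This r fell to 0.618 without Ad-GHRKO 2 and Ad-GHRKO 4, and it was 0.97 over the 7 libraries that were not muscle-rich. With Cd79a, r was 0.468 for Igkc (permutation p = 0.169, adjusted p = 0.203) and 0.066 for Ighm (permutation p = 0.859, adjusted p = 0.859). Ighm and Igkc themselves had an r of 0.681 (permutation p = 0.0337, adjusted p = 0.0506) and a rho of 0.733, and an r of 0.917 over the 7 libraries that were not muscle-rich. Whether the correlation with Jchain differed from that with Cd79a was not tested.

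**Figure D5:**
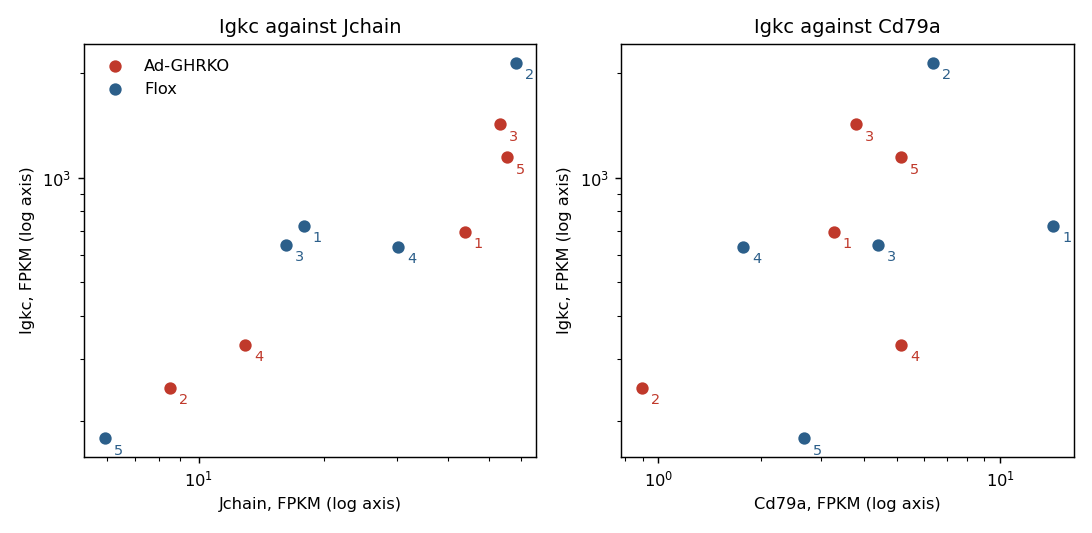
Igkc FPKM against Jchain FPKM (left) and against Cd79a FPKM (right), all on log axes, 1 point per library with its replicate number, Ad-GHRKO and Flox in different colours. Igkc and Jchain rise together from Flox 5 (178 and 5.92 FPKM) to Flox 2 (2139 and 58.2 FPKM), while Flox 1, highest in Cd79a at 14.3 FPKM, has an Igkc level of 725 FPKM.

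Lists on what immunoglobulin-making cells do are given beside the 2.19% called of all tested genes, a share at which lists this short would mostly hold no call. None of 7 tested genes of germinal centre and class switching was called, of 15 listed. None of 14 tested genes of B cell receptor signalling was called, of 15 listed, nor any of 9 tested Fc receptors, of 11 listed, where Fcgrt, which protects IgG from breakdown, had 179.8 ± 44.7 FPKM in Ad-GHRKO and 219 ± 71.8 FPKM in Flox libraries (SD, n = 5 each; limma, adjusted p = 0.697). The recombination and pre-B cell list summed to at most 0.529 FPKM in any library.

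A pair of genes on the B cell lists was called, and neither is a B cell gene alone. Itgax, which encodes CD11c of dendritic cells, macrophages and some aged B cells, rose: it had 2.87, 5.14, 9.37, 3.26 and 12.7 FPKM in Ad-GHRKO libraries 1 to 5, and 1.76, 0.735, 1.34, 2.29 and 0.558 FPKM in Flox libraries 1 to 5 (log2 difference 1.59, SE 0.35; limma, adjusted p = 0.0447). It was 1 of 8 tested genes of the B-1 and age-associated B cell list, of 10 listed. The other 7 were not called, Zbtb32, Spn, Tbx21 and Bhlhe41 among them. Bhlhe41 had 0.863 to 4.46 FPKM over all libraries. Cd5 of that list had 0.0426 to 0.588 FPKM over all libraries and was not tested. Ccr10, a homing receptor of IgA plasma cells and some T cells, fell: it had 0.507, 0.815, 1.04, 0.451 and 0.396 FPKM in Ad-GHRKO libraries 1 to 5, and 1.39, 1.4, 3.02, 1.49 and 2.4 FPKM in Flox libraries 1 to 5 (log2 difference -0.82, SE 0.18; limma, adjusted p = 0.0411). It was 1 of 6 tested genes of the survival and homing list, of 15 listed. Ccr10 met the limit for testing through its Flox libraries, since Ad-GHRKO 3 was the only Ad-GHRKO library above 1 FPKM. Itgax exceeded 1 FPKM in all Ad-GHRKO libraries but not in all Flox libraries. The groups did not overlap in either gene. Both calls were lost when most single libraries were left out, with adjusted p-values up to 0.147 for Itgax and 0.124 for Ccr10.

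Markers of other cells were set beside these values, again with 2.19% called of all tested genes. None of 8 tested T cell genes was called, of 18 listed, and the summed T cell list was 10.5 to 31.6 FPKM in Ad-GHRKO and 9.18 to 48.2 FPKM in Flox libraries, highest in Flox 1, the library highest in Cd79a. The lymph node stroma list summed to 17 to 36 FPKM in Ad-GHRKO and 40.0 to 66.1 FPKM in Flox libraries. Most of that sum was Enpp2, which adipocytes also secrete and which fell (22.7 ± 5.7 FPKM in Ad-GHRKO and 45.6 ± 8.52 FPKM in Flox libraries, SD, n = 5 each; limma, adjusted p = 0.0324), and it was the 1 call among 3 tested genes of 12 listed. The Enpp2 call was lost in 9 of 23 alternatives, with adjusted p-values up to 0.0848. The part of lymph node tissue in the immunoglobulin values was not tested. The 10 adipocyte genes identified the tissue, with a summed level of 4811 to 11761 FPKM in Ad-GHRKO and 16079.5 to 31840.2 FPKM in Flox libraries. Cfd, the adipocyte protease adipsin, was the 1 of them called (2006 ± 550.2 FPKM in Ad-GHRKO and 16079 ± 5237 FPKM in Flox libraries, SD, n = 5 each; limma, adjusted p = 0.00169). Cfd made up most of the gap between the summed levels, whose means were 9599 FPKM in Ad-GHRKO and 24881 FPKM in Flox libraries. Fabp4, the fatty acid carrier of fat cells, had 2101 ± 724 FPKM in Ad-GHRKO and 2134 ± 570.1 FPKM in Flox libraries. None of 10 macrophage genes was called, and their sum was 955 to 2474 FPKM in Ad-GHRKO and 654 to 1970.1 FPKM in Flox libraries.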

How the data were processed

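RNA of 10 inguinal fat samples was measured, and samples were grouped by the genotype in the labels. Libraries were made from polyA-selected RNA with a marked second strand, per the labels' protocols. The authors deposited 1 table of FPKM values, 1 column per library, per the file headers. How reads were aligned and counted, and whether by strand, is not given in the sources used here. GRCm39 is named in the submitters' processing notes, but 99.54% of the identifiers shared with GENCODE M21 carry its GRCm38 coordinates, so positions are GRCm38. FPKM times exon length and library scale gave whole reads (tolerance 0.01) for 99.42% to 99.48% of values. Shared reads between similar V segments could split or swap counts, and mutated or junctional bases could lower their alignment.

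The table was tested with limma 3.58.1 (R 4.3.3) after taking log2(FPKM + 1), with trend, two-sided, threshold 0.05, over genes that reached 1 FPKM in 5 or more libraries. This scale understates changes of low genes. The script was tested on simulated data. Correlations used permutation tests in scipy 1.17.1. The members and lists were chosen with earlier results of these data known. Named genes were every constant gene, the 5 segments of each V locus with the highest mean FPKM, members past the threshold, a fixed set of B and plasma cell genes, and the most abundant and called list genes, of which not all are named and some are not reported here; segments named otherwise were chosen after their values were seen. Sequences are from the transcripts of GENCODE M21, which holds all 230 members. Replicate numbers did not pair the libraries. Alternatives were other pseudocounts, filters and scalings, a replicate block, weights, a robust prior, a T cell covariate, voom on recovered reads, leaving out libraries and other diversity measures; leaving the leading segment out of the diversity was added after seeing the data.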

Additional observations from a re-analysis of the deposited data

Results flagged for a closer look

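Values were flagged where the highest or the lowest of the 5 libraries of a genotype stood apart from the nearest other by more than 0.71 of the group's range. About 1 of 20 groups of 5 normally distributed values would pass that limit. FPKM values and shares are skewed, so that rate does not hold here. A gene with reads in 1 library of a genotype only passes the limit by necessity. Of 151 groups looked at, 38 were flagged, with 19 flags in Ad-GHRKO and 19 in Flox libraries. Many flags rest on the same few segments, and a share and its level are not independent.

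In Ad-GHRKO 1 the lambda genes stood apart: Iglc1 at 215 FPKM (0.574 to 15.3 in the rest of its genotype), Iglv1 at 250.4 FPKM, the lambda constant sum at 226 FPKM and lambda at 24.4% of light constant FPKM. Ighv1-52 stood apart there at 103 FPKM and 29.8% of Ighv, and Mzb1 at 0.72 FPKM. In Ad-GHRKO 3 these were Igha at 32.8 FPKM, Ighg2c at 33.6 FPKM, Ighv7-1 at 97.6 FPKM and 13.7% of Ighv, Igkv15-103 at 196 FPKM, and summed Ighv over heavy constant FPKM at 0.719. In Ad-GHRKO 5 they were Ighv1-53 at 95.1 FPKM and 23.9% of Ighv, and Igkv4-55 at 159.9 FPKM and 13.6% of Igkv. Ad-GHRKO 2 was low in Igkv segments with a read, at 35, and Ad-GHRKO 4 held the genotype's only Ighe value above 0, 0.164 FPKM.

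In Flox 2 the flagged values were Igkc at 2139 FPKM, Igkv14-126 at 1373 FPKM, Ighv11-2 at 297 FPKM and Iglc4 at 0.178 FPKM, which is 1 read. In Flox 3 they were Ighg1 at 2.42 FPKM, Ighg2b at 19.4 FPKM, Ighv1-53 at 27.7 FPKM, Ighv1-52 at 21.2 FPKM and 7.08% of Ighv, and Igkv4-55 at 44.3 FPKM and 7.44% of Igkv. In Flox 4 they were Iglc1 at 24.3 FPKM, the lambda constant sum at 31.9 FPKM, Ighv7-1 at 9.88 FPKM and 3.14% of Ighv, Igkv15-103 at 26.3 FPKM, and Igkv10-94 at 5.33 FPKM. In Flox 1, Igkv6-15 stood apart at 118 FPKM and 23.2% of Igkv.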

How the results depend on the processing

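The count of 1 member called higher became 0 with a pseudocount of 0.1, without a filter, with filters of 5 and 0.1 FPKM, with a robust prior, with voom on recovered reads and without the 3 muscle-rich libraries, and 0 to 2 when single libraries were left out. The count of 0 members called lower (limma; 4 members of either direction had an unadjusted p under 0.05) became 1, Iglc3, with array weights. The call was lost in these fits and the cause was not tested. The summed immunoglobulin ratio of 1.07 ran from 0.839 to 1.45, moving by less than 1 SD. Its lowest value, 0.839, came without the 3 muscle-rich libraries, where Flox had the higher mean. The effective number differences kept within 1 SD of -4.15 and -2.12, and without the muscle-rich libraries were 0.99 and 0.0856.

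Replicate numbers did not pair the libraries: correlations of same-numbered deviations were -0.489, 0.394, -0.0339, 0.28 and -0.259, and 2 of 10 libraries correlated best with their own number. With the replicate block, 0 members and 85 of 12785 genes were called, against 280 without it. Other counts over all genes ran from 116 without Ad-GHRKO 3 to 1185 without Ad-GHRKO 1 and 1695 with array weights.

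Of 696 alternatives of 31 single genes, 598 kept direction and call, 50 lost a call, 1 gained one and 47 changed sign, none of these with a call. Sign changes of log2 differences, with leave-one-out values as lowest and highest, were as follows. With array weights they were -0.17 for Igha, -0.89 for Iglc1, -0.49 for Iglc2, -0.01 for Ighv1-52, -0.30 for Ighv1-26, -0.55 for Igkv14-126, -0.93 for Iglv1 and -0.45 for Jchain. Without the muscle-rich libraries they were -0.90 for Iglc1, -0.13 for Iglc2, -0.57 for Igkv14-126, -0.66 for Iglv1 and -0.37 for Jchain. Igkc was 0.07 with TPM rescaling and 0.01 with the T cell covariate. Iglc2 was -0.12 and -0.07 in those fits, -0.51 and -0.12 with pseudocounts of 0.1 and 0.5, -0.01 with median ratio scaling and -0.81 with voom. When single libraries were left out, the ranges were -0.42 to 0.03 for Ighm, -0.27 to 0.53 for Ighg2c, -0.48 to 0.57 for Igha, -0.52 to 0.38 for Igkc, -0.41 to 1.36 for Iglc1, -0.30 to 0.56 for Iglc2, -0.30 to 1.31 for Ighv1-53, -0.12 to 1.77 for Ighv1-52, -0.06 to 1.21 for Ighv1-26, -0.28 to 1.59 for Igkv14-126, -1.32 to 0.30 for Igkv6-15, -0.29 to 1.29 for Iglv1 and -0.39 to 0.09 for Pou2af1.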

Other observations

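The table also lists 14 immunoglobulin rows that the name rule does not take, most of them J segments of 38 to 100 bases with few reads. The J segment with the most reads was Ighj4, with 9, 9, 33, 9 and 13 reads in Ad-GHRKO libraries 1 to 5, and 15, 37, 11, 10 and 3 reads in Flox libraries 1 to 5. Gm43218, annotated as a V segment, had 124 reads (19.3 FPKM) in Flox 3, 6 reads in Ad-GHRKO 5 and none in the other 8 libraries. No hypothesis was tested on these rows.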
